A study of Arabidopsis thaliana with 3 samples.

Results

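The UGT genes of Arabidopsis thaliana encode family 1 glycosyltransferases, and 33 of them that are not counted here among the flavonoid glycosylation enzymes were followed in the hy5-1 mutant and its wild type Ler (Landsberg erecta) after cold exposure. The members were all genes of the array's annotation whose symbol begins with UGT, less UGT75C1, UGT78D1, UGT78D2, UGT78D3 and UGT89C1, which act on anthocyanins and flavonols. They were 33 of 7234 named loci. HY5 is a bZIP transcription factor that acts in light signalling, hy5-1 is a loss-of-function allele of it, and the title of the series places it in the control of cold-induced expression. Both genotypes were grown in soil for 3 weeks at 22 °C in cycles of 16 h light and 8 h dark, then spent 1 day at 4 °C, so the hy5-1 and the Ler plants both carried the cold treatment and the arrays compare genotypes, not cold with warmth. Each of 3 arrays carried hy5-1 RNA in the red dye and Ler RNA in the green dye, and each was labelled a biological replicate. Whether plants were pooled is not given in the sources used here.

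Family 1 glycosyltransferases move a sugar, most often glucose from UDP-glucose, onto small acceptors such as hormones, phenolic acids, glucosinolate precursors, sterols and foreign compounds. The sugar usually makes the acceptor more soluble, lets it be stored in the vacuole and, for hormones, often switches off activity. The number after UGT names the subfamily and the letter after it a smaller group of close relatives, and many of the genes lie side by side in the genome.

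Values were log2 ratios of hy5-1 over Ler, so a value of 1 is a doubling and a value below 0 is a lower transcript level in hy5-1. This direction, red dye over green, is the likely one and not a stated one, since the deposited table does not name its numerator. The sample titles read "Ler vs hy5", which can also be taken in the opposite order. Under the other reading every sign below is turned. The dyes were not exchanged on any array, so genotype and the dye preference of a probe cannot be told apart. The features were matched to genes by an order of the rows that had been found from the values. Under it, 7 genes with 10 or more features each (71 in all) had a within-gene variance of 0.087 of their total variance, against 0.979 with row numbers as given. For 132 genes with 2 or 3 features the same shares were 0.746 and 0.881, so repeated features of these genes were far less alike. Since the order came from these same values, the shares are not an independent check of it. The table holds ratios and no levels, so the tissue could not be checked by the level of its markers. Of the fixed markers, EXPA18 of roots had a mean ratio of 0.06 and SAG29 of senescent leaves 0.34, neither past the threshold, and no flower marker had a named feature. HY5 was not analysed here. In whole plants, fewer cells of a type and less RNA per cell cannot be told apart.

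Of the 33 UGT genes, 5 were lower in hy5-1 and 0 were higher, with 28 not past the threshold of 0.05 on the limma adjusted p over all 7234 loci. The 5 were UGT74D1, UGT73C1, UGT73B1, UGT88A1 and UGT74F1. That is 15.2% of the members, beside 17.2% of all loci past the threshold, of which 9.29% were lower and 7.88% higher. The share was thus near that of all genes, and no test of the family as a whole was made. At an unadjusted limma p under 0.05 there were 7 members, none of them higher, beside 36.3% of all loci. The median of the mean ratios was -0.05 over the members and 0 over all loci. The median size of a mean ratio, whatever its sign, was 0.16 for the members and 0.22 for all loci. For 12 of 33 members all arrays had the same sign, 10 below 0 and 2 above it. Over all loci the same sign was seen in 54.5%, with 27.5% below 0 and 27% above.

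**Figure D1:**
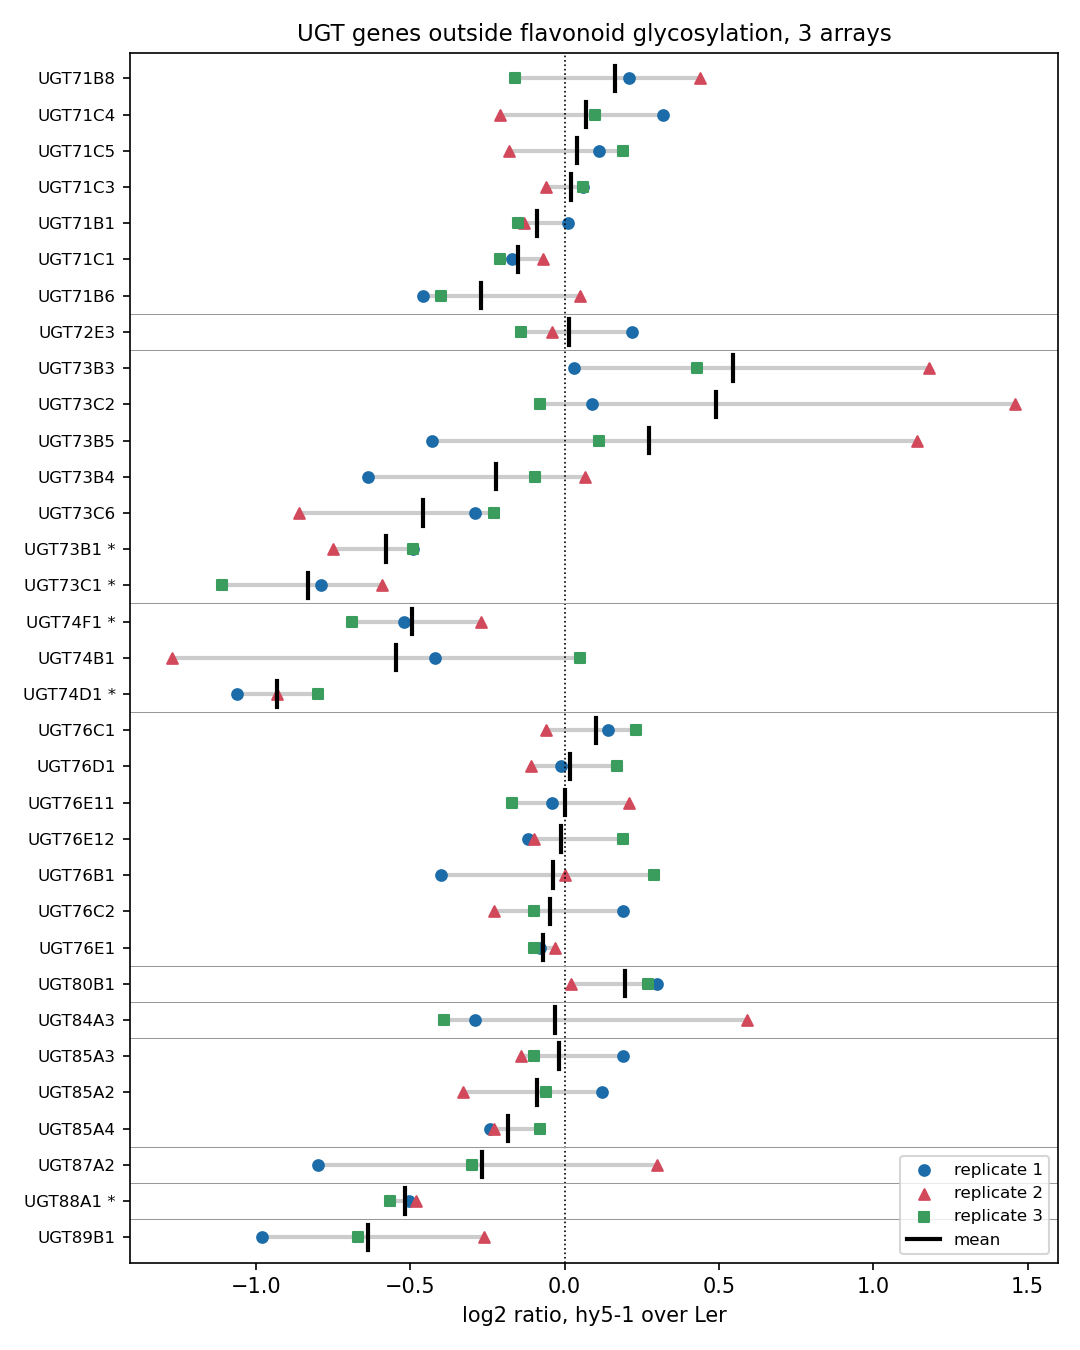
Log2 ratios of hy5-1 over Ler (horizontal axis) of the 33 UGT genes, a row each, grouped by subfamily with lines between the groups. Points are the 3 replicate arrays, the black bar is their mean, the grey line their range, and an asterisk marks the 5 genes past the threshold (limma adjusted p under 0.05), all of which lie left of 0.

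Among the subfamilies with several measured genes, UGT74 stood lowest. Its enzymes act on acids and on thiohydroximates, and 2 of its 3 measured genes were called lower. UGT74D1 (AT2G31750), which glucosylates auxins and auxin breakdown products, had log2 ratios of -1.06, -0.93 and -0.80 on arrays 1, 2 and 3. It was the lowest member on the mean and close to the same on every array, at -0.93 ± 0.13 (SD, n = 3), a 1.91-fold lower level in hy5-1 with a limma adjusted p of 0.0169. Its 95% interval ran from -1.19 to -0.67.

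UGT74F1 (AT2G43840), which attaches glucose to salicylic acid, had -0.52, -0.27 and -0.69. All arrays were below 0, and the mean of -0.49 ± 0.21 (SD, n = 3) passed narrowly, with a limma adjusted p of 0.0482. UGT74B1 (AT1G24100), the S-glucosyltransferase of the glucosinolate core pathway, had -0.42, -1.27 and 0.05. Array 2 was far below the others and array 3 was not below 0, so the mean of -0.55 ± 0.67 (SD, n = 3) did not pass (limma adjusted p = 0.201). It was -0.185 without replicate 2 and -0.845 without replicate 3.

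The UGT73 subfamily spread widest, with 7 measured genes from -0.83 to 0.55 on the mean, 2 of them called lower and 0 higher (limma, with none higher at an unadjusted p under 0.05). UGT73C1 (AT2G36750), known to act on cytokinins and on explosives residues in vitro, had -0.79, -0.59 and -1.11. All arrays were well below 0, and the mean was -0.83 ± 0.26 (SD, n = 3), a 1.78-fold lower level in hy5-1 with a limma adjusted p of 0.0235. UGT73B1 (AT4G34138) had -0.49, -0.75 and -0.49. Its arrays were again close together, with a mean of -0.58 ± 0.15 (SD, n = 3), a 1.49-fold lower level that passed (limma adjusted p = 0.0294).

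UGT73C6 (AT2G36790), which glucosylates brassinosteroids and also flavonols, had -0.29, -0.86 and -0.23. It was below 0 on each array but did not pass (-0.46 ± 0.35, SD, n = 3; limma adjusted p = 0.0992).

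The other 4 UGT73 genes did not pass and had their highest value on array 2. UGT73B3 (AT4G34131), which with UGT73B5 is needed for full resistance to bacteria and takes part in redox balance, had 0.03, 1.18 and 0.43. UGT73B5 (AT2G15480) had -0.43, 1.14 and 0.11. UGT73C2 (AT2G36760) had 0.09, 1.46 and -0.08. The means of these 3 genes were the highest among all members, at 0.55 ± 0.58, 0.27 ± 0.80 and 0.49 ± 0.84 for UGT73B3, UGT73B5 and UGT73C2 (SD, n = 3 each), with limma adjusted p-values of 0.160, 0.591 and 0.338. Array 2 decided these means, since without replicate 2 they were 0.23, -0.16 and 0.005. UGT73B4 (AT2G15490), an enzyme that conjugates nitrotoluene products, had -0.635, 0.065 and -0.095 as the average of its 2 features.

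Of the subfamilies with a single measured gene, UGT88 and UGT89 lay lowest. UGT88A1 (AT3G16520) had -0.505, -0.48 and -0.565 as the average of 2 features, and their mean of -0.52 ± 0.04 (SD, n = 3) passed (limma adjusted p = 0.0274). This average joined 2 features that did not behave alike. One had -0.94, -1.07 and -1.15, a mean of -1.05 ± 0.11 (SD, n = 3), and would be called alone (limma adjusted p = 0.0165). The other had -0.07, 0.11 and 0.02, a mean of 0.02 ± 0.09 (SD, n = 3), and would not (limma adjusted p = 0.912). The features disagreed on every array, so the call of UGT88A1 rests on 1 of them. Their means differed by 1.07, and among 122 loci with 2 features 5 had a difference that large, UGT88A1 among them, while the median difference was 0.305.

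The other member with 2 features, UGT73B4, had them closer. One feature had -0.33, 0.01 and -0.07, and the other -0.94, 0.12 and -0.12. Both were lowest on array 1 and highest on array 2, and their means differed by 0.183. The remaining 31 members had a single feature, so their ratios could not be set against another feature of the gene.

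UGT89B1 (AT1G73880) had -0.98, -0.26 and -0.67. It was below 0 on each array and came closest to the threshold among the genes that missed it, at -0.64 ± 0.36 (SD, n = 3; limma adjusted p = 0.0533). Without replicate 2 its mean was -0.825 and it passed (limma adjusted p = 0.0319), and over its 8 alternatives on the same features the adjusted p ran from 0.0319 to 0.262.

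The UGT76 subfamily had 7 measured genes, and none was past the threshold in either direction (limma, also 0 at an unadjusted p under 0.05). Their means ran from -0.07 to 0.10, the narrowest span of the subfamilies with 7 members. Among them are enzymes of cytokinin and of defence signals. UGT76C1 (AT5G05870), a cytokinin N-glucosyltransferase, had 0.14, -0.06 and 0.23, and its neighbour UGT76C2 (AT5G05860), with the same activity, had 0.19, -0.23 and -0.10. Neither kept its sign over the arrays. UGT76B1 (AT3G11340), which glucosylates isoleucic acid, salicylic acid and N-hydroxypipecolic acid, had -0.40, 0.00 and 0.29. Its arrays lay on both sides of 0, and its 95% interval ran from -0.43 to 0.36. UGT76D1 (AT2G26480), which acts on dihydroxybenzoic acids, had -0.01, -0.11 and 0.17. UGT76E1, with -0.08, -0.03 and -0.10, was the steadiest gene of the group, and its interval ran from -0.30 to 0.16. UGT76E11 had -0.04, 0.21 and -0.17, and UGT76E12 had -0.12, -0.10 and 0.19. Both lay around 0 on the mean.

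The 7 UGT71 genes also gave 0 calls (limma, 0 at an unadjusted p under 0.05), with means from -0.27 to 0.16. Several of them glucosylate abscisic acid. UGT71B6 (AT3G21780), one of these, had -0.46, 0.05 and -0.40, and UGT71B8 (AT3G21800), another, had 0.21, 0.44 and -0.16. UGT71C5 (AT1G07240), the third, had 0.11, -0.18 and 0.19. None of these 3 abscisic acid enzymes had the same sign on all arrays. UGT71B1 had 0.01, -0.13 and -0.15, UGT71C3 had 0.06, -0.06 and 0.06, and UGT71C4 had 0.32, -0.21 and 0.10. UGT71C1 was the only UGT71 gene below 0 throughout, at -0.17, -0.07 and -0.21, with a limma adjusted p of 0.309.

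The 3 UGT85 genes had means from -0.18 to -0.02 and gave 0 calls (limma, 0 at an unadjusted p under 0.05). UGT85A2 had 0.12, -0.33 and -0.06, UGT85A3 had 0.19, -0.14 and -0.10, and UGT85A4 had -0.24, -0.23 and -0.08. Of these, UGT85A4 alone kept 1 sign.

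The subfamilies UGT72, UGT80, UGT84 and UGT87 had 1 measured gene each, and none of these genes passed. UGT72E3 (AT5G26310), which glucosylates the monolignols, had 0.22, -0.04 and -0.14. UGT84A3 (AT4G15490), which makes glucose esters of hydroxycinnamic acids, had -0.29, 0.59 and -0.39. For UGT84A3 array 2 was opposite in sign to the others. UGT80B1 (AT1G43620), a sterol glucosyltransferase also known as TRANSPARENT TESTA 15, had 0.30, 0.02 and 0.27, and with UGT73B3 it was 1 of the 2 members above 0 on every array. UGT87A2 (AT2G30140), known for an effect on flowering time, had -0.80, 0.30 and -0.30, with its arrays on both sides of 0.

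Ranked by the median of their genes' means, the subfamilies with several members ran UGT74 at -0.55, UGT73 at -0.22, UGT85 at -0.09, UGT76 at -0.01 and UGT71 at 0.02. On arrays 1, 2 and 3 the median of UGT74 was -0.52, -0.93 and -0.69. That of UGT73 was -0.43, 0.065 and -0.095, so the UGT74 median was the lower on each array. With an array left out, the median of the means ran from -0.845 (without replicate 3) to -0.605 for UGT74, from -0.285 to -0.015 (without replicate 1) for UGT73 and from -0.155 (without replicate 1) to 0.03 (without replicate 2) for UGT85. Those of UGT76 and UGT71 had both signs, from -0.055 to 0.035 and from -0.055 to 0.025. The array medians of UGT73, UGT85, UGT76 and UGT71 overlapped, and the order among these 4 does not exceed the spread over arrays. The genes of a subfamily share sequence and are not replicates, and the ranking was not tested.

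**Figure D2:**
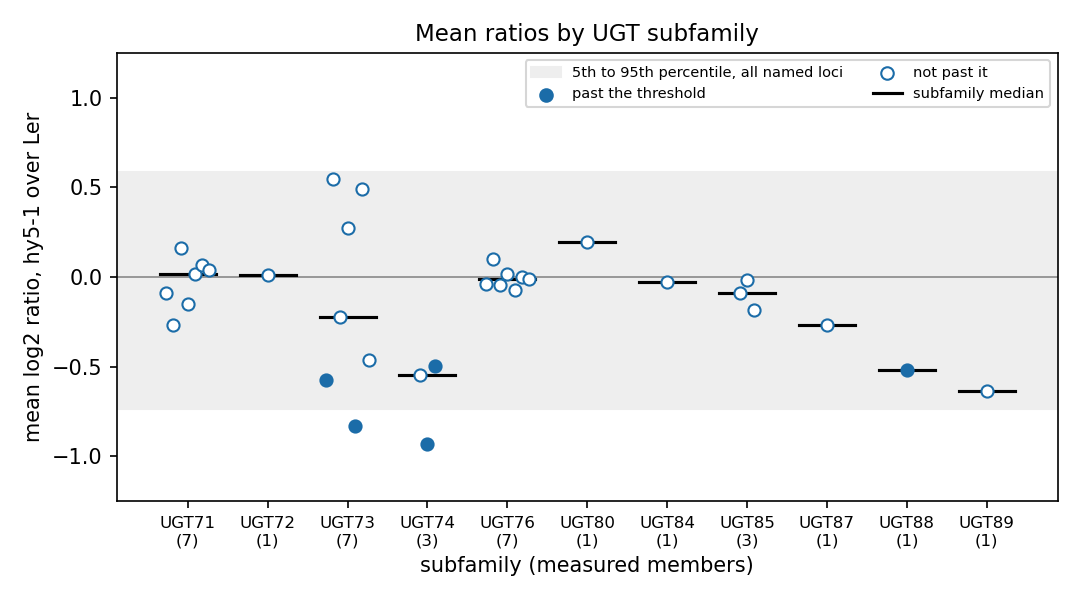
Mean log2 ratio of hy5-1 over Ler (vertical axis) of each UGT gene by subfamily, with the number of measured members in brackets. Filled points passed the threshold, black lines are subfamily medians, and the grey band spans the 5th to 95th percentile of all named loci (-0.73 to 0.59): UGT73C1 and UGT74D1 lie below the band and no gene lies above it.

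Array 2 differed from the other arrays for a group of UGT genes. Array 2 minus the mean of arrays 1 and 3 was at least 0.8 for 5 members, namely UGT73C2 at 1.46, UGT73B5 at 1.30, UGT73B3 at 0.95, UGT84A3 at 0.93 and UGT87A2 at 0.85. It was -0.8 or less for 1 member, UGT74B1, at -1.09. These are 15.2% and 3.03% of the members, beside 2.94% and 3.44% of all loci, and the limit of 0.8 was set after the values were seen. The median of this difference was 0 over the members. All 5 flavonoid UGT genes were lower on array 2, with differences from -0.28 for UGT89C1 to -2.61 for UGT78D1. Over all loci the median difference was -0.005, and the 5th to 95th percentile ran from -0.67 to 0.65. UGT89C1 and UGT78D2 (-0.515) lay inside that range, and UGT78D3, UGT75C1 and UGT78D1 lay below it. Over the 33 members Pearson's r was 0.683 for arrays 1 and 3, 0.294 for arrays 1 and 2 and 0.374 for arrays 2 and 3. Over all loci these values were 0.759, 0.512 and 0.504. The correlations are across genes, which share an array and are not independent.

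**Figure D3:**
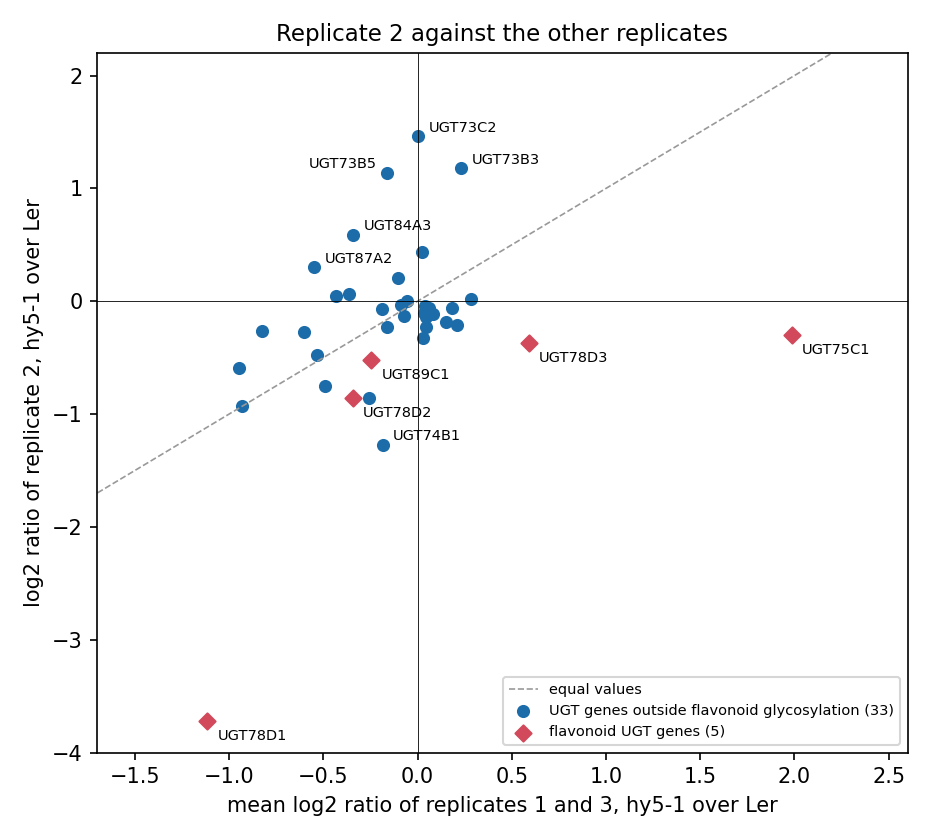
Log2 ratio of hy5-1 over Ler on replicate 2 (vertical axis) against the mean of replicates 1 and 3 (horizontal axis) for the 33 UGT genes (circles) and the 5 flavonoid UGT genes (diamonds). Genes at least 0.8 above or below the dashed line of equal values are named, as are all flavonoid genes. UGT73C2, UGT73B5 and UGT73B3 lie above 1 on replicate 2. All 5 flavonoid genes lie below the line, with UGT89C1 and UGT78D2 nearest to it.

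Of the 33 genes, 19 lay in 8 clusters with another member at most 5 protein-coding genes away in the RefSeq annotation of assembly TAIR10.1, which gave 11 neighbouring pairs. Within the UGT73 clusters the means of neighbours differed. UGT73C2 lay above the adjacent UGT73C1 by 0.88, 2.05 and 1.03 on arrays 1, 2 and 3, a mean difference of 1.32 ± 0.64 (SD, n = 3). UGT73B1 lay below its neighbour UGT73B3 by a mean of 1.12 on the log2 scale, with differences of -0.52, -1.93 and -0.92. In all 4 UGT73 pairs the difference kept its sign over the arrays, and it did so in 1 of 7 pairs of other subfamilies, UGT71B8 above UGT71B6. That is 5 of the 11 pairs, and UGT73C2 is part of more than 1 of them. Neighbouring pairs of other genes were not examined, so no share over the array can be set beside these counts. Mean differences were 0.495 to 1.32 in size in the UGT73 pairs and 0.01 to 0.433 in the others, a separation that rested on array 2. Without it the UGT73C1 and UGT73C2 pair differed by 0.955 in size and the UGT73B3 and UGT73B1 pair by 0.72, but UGT73C2 and UGT73C6 by 0.265 and UGT73B5 and UGT73B4 by 0.205, less than the 0.455 of UGT71B6 and UGT71B8. An exact sign-flip permutation test, two-sided, cannot go below p = 0.25 with 3 arrays, and that was its value for each of these 5 pairs. The annotated UGT73B5 and UGT73B4 loci overlap, as do the ends of UGT71C4 and UGT71C3, and probe sequences were not used here. Whether a probe also takes up a neighbouring copy was not tested.

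**Figure D4:**
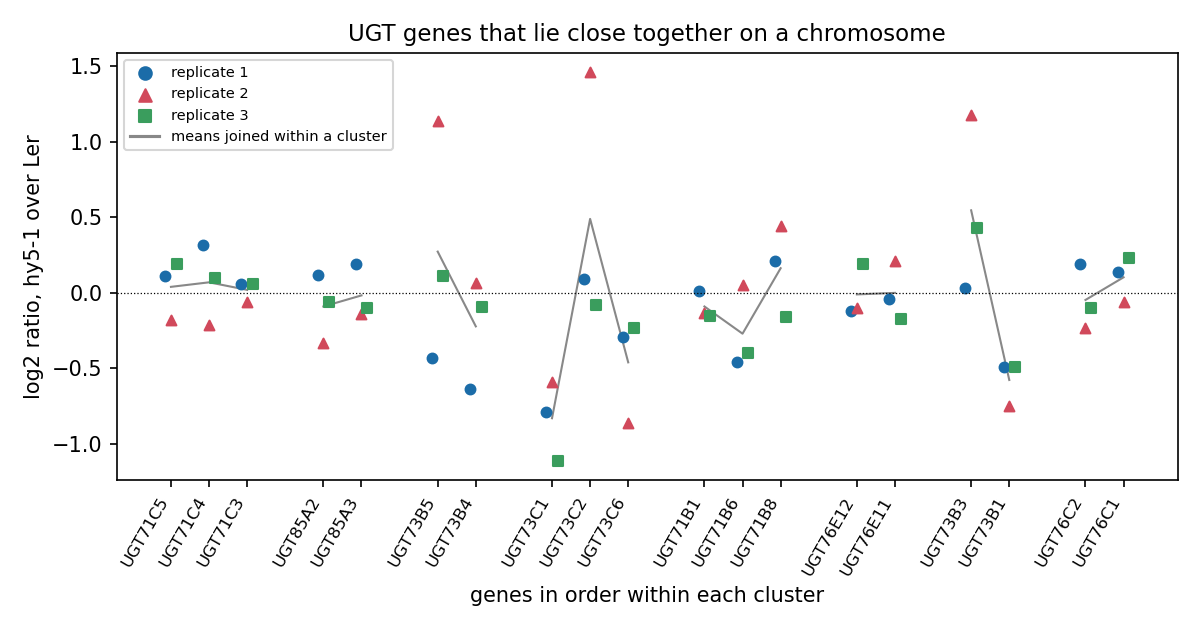
Log2 ratio of hy5-1 over Ler (vertical axis) on the 3 replicate arrays for the 19 UGT genes in 8 chromosomal clusters, in gene order (horizontal axis), with grey lines joining the means within a cluster. The means of UGT73C1, UGT73C2 and UGT73C6 alternate around 0, but that of UGT73C2 is 0.005 without replicate 2. The means of UGT73B3 and UGT73B1 lie on opposite sides, while the UGT71C, UGT85A, UGT76E and UGT76C genes stay near 0.

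A further 4 genes of the array carry a UGT name among their synonyms only and were not members. SGT (UGT80A2), the other sterol glucosyltransferase, had 0.345, 0.15 and 0.60 as the average of 2 features, which were not looked at singly. It was above 0 on all arrays (limma adjusted p = 0.0955), as was UGT80B1, though that gene had only 0.02 on array 2. IAGLU (AT4G15550), an auxin glucosyltransferase, had -0.55, 0.48 and -0.19, with its arrays on both sides of 0. GT72B1, which acts on chlorophenols, had -0.56, 0.18 and -0.60, and AT5G54010 (UGT79B6) had 0.47, 0.02 and 0.18. None of the 4 was past the threshold.

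Genes of families that can supply, share or reverse UGT reactions were few on the annotated part of the array. Beta-glucosidases, a family that can remove sugars from conjugates, had 11 measured genes. Of these 3 were called lower in hy5-1, 0 higher and 8 did not pass, with a median of the means of -0.16. Whether they act on products of the UGT genes followed here was not tested. BGLU15 had -0.48, -0.51 and -0.44, BGLU44 had -0.48, -0.49 and -0.31, and BGLU16 had -0.38, -0.41 and -0.40. These arrays lay close together, and the limma adjusted p-values were 0.0312, 0.0422 and 0.0416 for BGLU15, BGLU44 and BGLU16. Glutathione transferases, which work beside UGT enzymes in the detoxification of foreign compounds, had 1 of 6 measured genes lower and 0 higher, with a median of -0.03. The gene called was GSTF3, at -1.0, -0.42 and -0.83 which averaged -0.75 ± 0.30 (SD, n = 3; limma adjusted p = 0.0312). These 27.3% and 16.7% of the measured genes compare with 9.29% of all loci called lower, and neither list was tested as a whole.

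The GH3 enzymes, which conjugate hormones to amino acids, had 0 of 4 measured genes past the threshold by limma and 0 at an unadjusted p under 0.05, with means from -0.11 to 0.09. The phenylpropanoid acceptors had 2 measured genes, CCR2 at 0.52 and HCT at 0.35, which did not pass (limma adjusted p = 0.0776 and 0.0797). Both were above 0 on all arrays with an unadjusted limma p under 0.05, which 36.3% of all loci had. Salicylate metabolism was represented by BSMT1, a methyltransferase of salicylic acid, at 0.56 ± 0.53 (SD, n = 3), glucosinolate synthesis by BCAT4 at -0.06 ± 1.07 (SD, n = 3), and the supply of UDP-sugars by USP at 0.18 ± 0.15 (SD, n = 3). None of these 3 passed, though BSMT1 was above 0 on all arrays with an unadjusted limma p of 0.0449. No named feature was found for the ABCC pumps or for the listed cytokinin and abscisic acid enzymes.

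All 5 calls were lost on either pair of arrays that included array 2. Every fit on a pair of arrays, also that without array 2, had a single residual degree of freedom. The means stayed below 0 and of similar size, at -0.865 without replicate 1 and -0.995 without replicate 3 for UGT74D1, -0.85 and -0.69 for UGT73C1, -0.62 and -0.62 for UGT73B1, -0.5225 and -0.4925 for UGT88A1, and -0.48 and -0.395 for UGT74F1. Without replicate 1 and without replicate 3 limma called 0 of the 33 genes and 0 of all loci. In each case 5 members had an unadjusted p under 0.05, of which 1 was higher without replicate 1 and 0 without replicate 3. Without replicate 2 limma called 6, beside 19.1% of all loci, and 10 members had an unadjusted p under 0.05, 1 of them higher. The share of all loci at an unadjusted p was not worked out for these fits. When the arrays were brought to the same median absolute deviation, 2 members passed, UGT74D1 and UGT73C1, beside 5.41% of all loci.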

How the data were processed

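The table as deposited holds, for 45220 features on 3 arrays, values read here as log2 ratios between the channels. For base, numerator, normalisation and scanner software the sources used here give nothing; the dyes (hy5-1 Cy5, Ler Cy3) are per the labels. Features were matched to 7440 annotated features by a formula on a grid of 266 columns and 170 rows, and averaged per locus (7234 loci). In it the deposited values run along the rows. The annotated features are numbered column by column, through every other row and then the rows between, with rows and columns in reverse order. Each locus mean was tested against 0 with limma 3.58.1 in R 4.3.3 (intercept fit, empirical Bayes, 2 residual and 3.04 prior degrees of freedom). Benjamini-Hochberg adjustment was over all loci, with a threshold of 0.05. On simulated data, the procedure called 42.4% of loci changed by 0.5 in log2 ratio and 95.6% of those changed by 1. The noise was drawn independently for each locus and array, with the spread after empirical Bayes moderation. It did not carry the departure of array 2 that many genes share, so these shares may be too high for the real arrays. Fewer loci were changed there than were called in the real data. A gene not past the threshold may thus still differ. The number of arrays limits the precision, and signal over background is unknown. Statistics were to be given for genes past the threshold, for those of 1 sign with a mean of at least 0.5 in size, and for the 3 with the widest range. Others were to appear by their array values. Beyond this rule, some list genes and markers that did not pass are named, and UGT73C6, UGT71C1, UGT76B1, UGT76E1 and SGT are given with statistics. The members, lists and rules were chosen with earlier results of these data known. Alternatives were other centring, scaling, moderation, feature averaging, row order, joint fitting of all features, and each array left out. No sequences were used here.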

Additional observations from a re-analysis of the deposited data

How the results depend on the processing

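The counts of 5 UGT genes past the threshold, 0 higher and 5 lower, and the median of -0.05 were the same under robust moderation. Median centring and medians over probes could not move the members, since each array already had a median of 0 over all loci and no member had more than 2 features. With all features fitted together 4 genes passed, all lower, UGT74F1 being lost (limma adjusted p = 0.0697). With scaled arrays 2 genes passed, 2 of them lower, with a median of -0.066, and UGT73B1, UGT74F1 and UGT88A1 were lost (limma adjusted p = 0.0734, 0.0635 and 0.0532) at means of -0.613, -0.472 and -0.522. Leaving out an array gave 0 to 6 genes past the threshold, 0 to 6 lower and medians from -0.09 to -0.06, and UGT73B5 then ran from -0.16 to 0.625, below 0 without replicate 2. For robust moderation, joint fitting and row numbers as given, the share of all loci called was not worked out here. With row numbers as given, which name other features, 2 genes passed, 2 higher and 0 lower. The median was then 0.03, and UGT73C1, UGT74D1, UGT74F1, UGT88A1, UGT74B1 and UGT73B5 turned to 0.047, 0.087, 0.083, 0.117, 0.06 and -0.01. Over the other alternatives the limma adjusted p of the 5 called genes ran from 0.0167 to 0.245. The cause of the changes was not tested. Other alternatives were chosen after seeing the data: UGT88A1 by its less changed feature alone left 4 genes past the threshold, and adding the 4 genes named UGT by synonym left 5. The pair differences without replicate 2, given above, were also added then. Each ratio sets hy5-1 against Ler on the same array, so the test of the mean ratio against 0 already pairs the genotypes by array.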
